A study of Mus musculus with 12 samples.

Results

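The genes that write, maintain and remove DNA methylation were followed in B16.F10, a melanoma cell line derived from C57BL/6 mice, after knockdown of Prmt7 and exposure to interferon gamma (IFN-γ). The set held 9 genes, chosen by name for their role, with earlier results of these data known. They were matched by gene symbol: Dnmt1, Dnmt3a, Dnmt3b, Uhrf1, Uhrf2, Hells, Tet1, Tet2 and Tet3. All 9 were found among 55418 symbols, and all 9 were among the 14407 genes that passed a filter of a mean value of at least 4. Cells were transfected for 72 h with a small interfering RNA (siRNA) against luciferase (siLuc, the control, since mouse cells have no luciferase gene) or against Prmt7 (siPRMT7), an arginine methyltransferase gene. Cells of the other pair of groups received the same siRNAs and were exposed to IFN-γ, a cytokine of T cells and natural killer cells, during the last 24 h. Each of the 4 groups had 3 libraries, prepared with an mRNA kit. All groups were thus transfected, no untransfected cells were part of the design, and the knockdown was transient. The labels do not say that libraries of a group came from separate cultures, so p-values measure the spread between these libraries, which may be technical.

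Methylation of cytosine in CpG pairs is copied after DNA replication and is erased by oxidation. Dnmt1 is the maintenance methyltransferase, which methylates the new strand behind the replication fork. Uhrf1 recognises hemimethylated CpG and recruits Dnmt1, and Hells is a chromatin remodeller that opens nucleosomal DNA for methylation. Dnmt3a and Dnmt3b methylate sites that had no mark. Tet1, Tet2 and Tet3 are dioxygenases that oxidise methylcytosine, using alpha-ketoglutarate as cosubstrate. In melanoma, loss of the oxidised base and reduced TET gene expression are known features, and inhibitors of DNA methyltransferases are known to induce interferon genes in cancer cells.

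The values are the authors' rlog values, a log2 scale made from read counts and corrected for library size, so a difference of 1 is a 2-fold change on that scale. The scale draws genes with few reads toward their mean, and differences of such genes are understated. Library totals ran from 18.971 M to 30.978 M reads. Prmt7 itself had a mean of 10.25 ± 0.09 in siLuc and 6.30 ± 0.12 in siPRMT7 cells without IFN-γ (SD, n = 3), a 15.4-fold difference, and with IFN-γ the difference was 16.1-fold. The melanocyte lineage was checked with 8 markers (Tyr, Tyrp1, Dct, Pmel, Mlana, Mitf, Sox10 and Mc1r), all past the filter, with values from 12.10 upward. Of 8 leukocyte markers only Cd68 and Csf1r passed it, and Cd3e and Adgre1 were at 0 in every library. Summed on a linear scale, the leukocyte markers ran from 408.8 to 421.6 in siLuc, 347.9 to 406.1 in siLuc with IFN-γ, 448.8 to 526.3 in siPRMT7 and 563.4 to 589.3 in siPRMT7 cells with IFN-γ. For 8 markers of fibroblasts, endothelium and keratinocytes, of which 4 passed the filter and 0 were at 0 in every library, the sums ran from 1000 to 1168, 576.8 to 603.9, 1216 to 1334 and 910.1 to 1011 in the same order of groups. Csf1r shares 16.4% of its exon bases with Hmgxb3 on the opposite strand. The part of these markers in the results was not tested.

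Promoters are shown for Dnmt1, Uhrf1 and Hells, which fell together in every comparison described below, and for Uhrf2, the close relative of Uhrf1 whose level hardly moved. The sequences are RefSeq windows on GRCm38.p6, from 250 bases before to 50 bases after an annotated start, 5′ to 3′ on the strand of the gene. All 9 genes had at least 1 window, 14 in all. Capitals mark E2F-type motifs, the letters TTTGGCGC, TTTCCCGC, TTTCGCGC or TTTGCCGC on either strand. E2F factors are the regulators of genes for DNA replication.
Dnmt1 (chr9:20952574-20952873, minus strand): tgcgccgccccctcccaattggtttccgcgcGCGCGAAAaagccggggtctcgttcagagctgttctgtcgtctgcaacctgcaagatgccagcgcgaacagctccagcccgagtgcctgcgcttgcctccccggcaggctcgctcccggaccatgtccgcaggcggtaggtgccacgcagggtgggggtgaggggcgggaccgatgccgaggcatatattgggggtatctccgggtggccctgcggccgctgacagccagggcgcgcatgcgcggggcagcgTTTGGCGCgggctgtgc
Uhrf1 (chr17:56304063-56304362, plus strand): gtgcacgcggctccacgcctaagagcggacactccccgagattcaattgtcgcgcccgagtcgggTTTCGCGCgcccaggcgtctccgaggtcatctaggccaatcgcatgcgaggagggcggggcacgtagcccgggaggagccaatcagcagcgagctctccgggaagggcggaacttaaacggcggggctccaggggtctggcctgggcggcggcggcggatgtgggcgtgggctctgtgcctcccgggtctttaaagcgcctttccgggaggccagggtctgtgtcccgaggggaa
Hells (chr19:38930740-38931039, plus strand): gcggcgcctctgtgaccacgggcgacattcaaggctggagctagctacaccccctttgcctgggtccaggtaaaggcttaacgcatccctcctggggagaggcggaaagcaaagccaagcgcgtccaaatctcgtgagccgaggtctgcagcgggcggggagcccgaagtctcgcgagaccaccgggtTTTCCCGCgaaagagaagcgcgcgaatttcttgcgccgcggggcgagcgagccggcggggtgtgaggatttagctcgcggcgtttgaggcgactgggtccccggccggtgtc
Uhrf2 (chr19:30030263-30030562, plus strand): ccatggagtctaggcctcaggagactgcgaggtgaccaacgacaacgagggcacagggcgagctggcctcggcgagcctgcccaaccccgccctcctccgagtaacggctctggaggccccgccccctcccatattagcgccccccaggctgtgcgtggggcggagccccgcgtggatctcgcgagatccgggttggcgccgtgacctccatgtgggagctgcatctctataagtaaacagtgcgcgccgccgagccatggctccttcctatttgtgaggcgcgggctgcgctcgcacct

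The 3 genes with an E2F-type match were Dnmt1, Uhrf1 and Hells, and no window of the other 6 genes held those letters. Counting from the annotated start, the match in Hells began at position -62 and that in Uhrf1 at -185. The Dnmt1 window held a match on the opposite strand at -219 and another at 34, past the start. Dnmt1 has 3 windows and Uhrf1 has 2, and the other windows of both genes held no match. The Dnmt1 and Uhrf1 windows printed here are those that hold a match. Their annotated starts, not the windows' first bases, lie 356 and 992 bases from the start of the transcript in the deposited table. The Dnmt1 and Uhrf1 windows nearest to that start, at 0 and 16 bases, are among those without a match. Tet1 has 1 window, whose annotated start lies 11794 bases from the start of the listed Tet1 transcript. The lack of a match there does not describe the promoter of that transcript. Among all promoter windows 2.26% held an E2F-type match, and among genes tested that have a window 4.67% did. Of 19 DNA replication genes with a window 8 held one (42.1%). The CHR element of mitotic genes (TTTGAA, in 5878 of 32851 windows) matched Dnmt3b and an upstream Dnmt1 window. The CCAAT box (CCAAT, in 37.4%) matched windows of Dnmt1, Uhrf1 and Tet3. The interferon elements ISRE (the interferon-stimulated response element, in 3.44%) and GAS (TTCNNNGAA, in 8.3%) matched none of the 14 windows, which says only that these letters are not in them. These matches are descriptions of sequence, not of binding.

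Knockdown of Prmt7 lowered Uhrf1, Dnmt1 and Hells to 43.7%, 47.7% and 50.3% of the control level, lowered Dnmt3a and Dnmt3b to 55.4% and 69.5%, and raised Tet2 to 223%. IFN-γ alone lowered the first 5 of these genes to 56.6%, 65.0%, 61.0%, 62.4% and 68.1% and raised Tet2 to 161%. In cells given both, Uhrf1 was at 9.91% of the level in siLuc cells without IFN-γ and Tet2 at 286%. The SD within a group was at most 0.20 for the 9 genes.

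**Figure D1:**
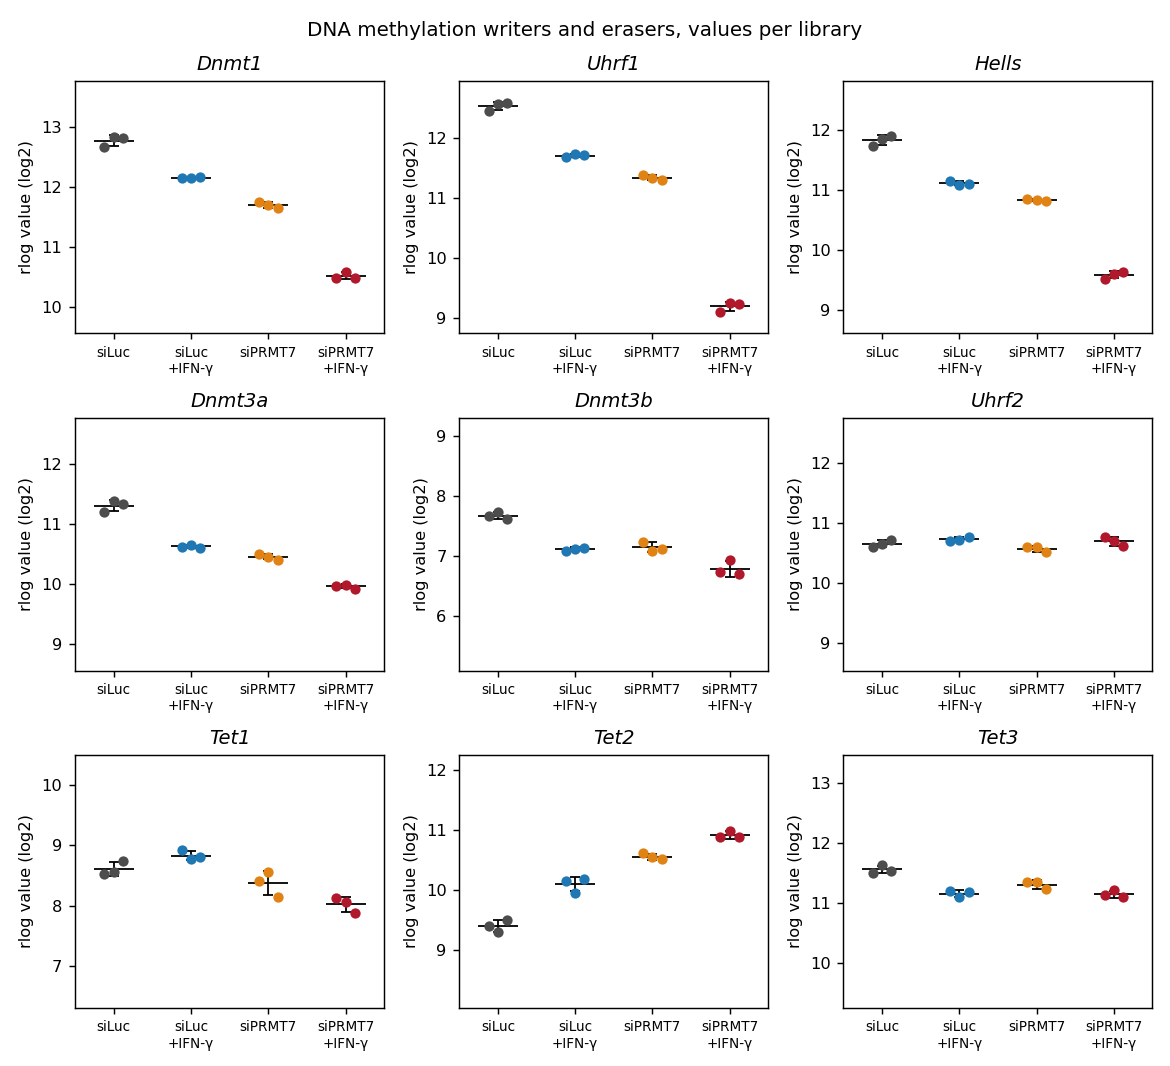
Values of the 9 genes in each library (rlog, log2; points, 3 libraries per group in order of replicate number, all panels on a span of equal size), with the group mean and SD. Dnmt1, Uhrf1 and Hells step down from siLuc to siPRMT7 with IFN-γ, Tet2 steps up, and Uhrf2 stays between 10.51 and 10.77.

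Dnmt1 stood at 12.67, 12.83 and 12.81 on the rlog scale in siLuc cells, and 12.14, 12.15 and 12.16 with IFN-γ. In siPRMT7 cells it had 11.75, 11.70 and 11.65, and with IFN-γ 10.49, 10.59 and 10.48. The 4 groups did not overlap, and their order was siLuc, siLuc with IFN-γ, siPRMT7, and siPRMT7 with IFN-γ. Dnmt1 fell by 1.07 on knockdown without IFN-γ (SE 0.04, limma adjusted p = 4.38e-15, n = 3 per group), to 47.7% of the control level. With IFN-γ in both groups it fell by 1.63 (SE 0.04, adjusted p = 2.77e-18). IFN-γ itself lowered it to 65.0% of the control level in siLuc cells (-0.62) and to 44.0% in siPRMT7 cells (-1.18). The transcript listed for Dnmt1 (ENSMUST00000004202.16, of gene ENSMUSG00000004099.16) spans chr9:20907209-20952979 of mm10, on the minus strand.

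Uhrf1 showed the widest range of the 9 genes. It had 12.45, 12.57 and 12.58 in siLuc cells and 11.68, 11.74 and 11.72 in siLuc cells with IFN-γ. The siPRMT7 libraries had 11.38, 11.34 and 11.30, and those with IFN-γ had 9.10, 9.25 and 9.24. These groups did not overlap either, and the 3 libraries of the last lay far below all others. Its transcript (ENSMUST00000001258.14, of gene ENSMUSG00000001228.14) spans chr17:56303321-56323486 of mm10, on the plus strand. Uhrf1 fell by 1.19 on knockdown without IFN-γ (SE 0.04, adjusted p = 1.4e-15). It fell by 2.51 with IFN-γ in both groups (adjusted p = 6.45e-21), which left 17.5% of the level in siLuc cells given IFN-γ. The difference with IFN-γ was the 61st lowest of the 14407 genes tested. In response to IFN-γ it dropped by 0.82 in siLuc and by 2.14 in siPRMT7 cells, where it ranked 16th from the lowest.

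Hells had 11.74, 11.85 and 11.90 in siLuc cells and 11.15, 11.09 and 11.11 with IFN-γ. In siPRMT7 cells it had 10.86, 10.83 and 10.82, and 9.52, 9.61 and 9.64 with IFN-γ. The order of groups was that of Dnmt1 and Uhrf1, with no overlap. Hells fell by 0.99 on knockdown without IFN-γ (SE 0.04, adjusted p = 2.04e-14) and by 1.53 with it (adjusted p = 1.18e-17). The IFN-γ differences were -0.71 in siLuc cells and -1.25 in siPRMT7 cells. Its transcript (ENSMUST00000025965.11, of gene ENSMUSG00000025001.11) spans chr19:38930915-38971051 of mm10, on the plus strand.

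The middle groups of these genes, siLuc with IFN-γ and siPRMT7 without, were also set against each other in the authors' deposited table. There the siPRMT7 group was lower by log2 fold changes of -0.45 for Dnmt1 (adjusted p = 2.36e-31), -0.38 for Uhrf1 (adjusted p = 5.64e-19) and -0.28 for Hells (adjusted p = 1.81e-09).

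Uhrf2 encodes a relative of Uhrf1 that also binds methylated DNA but is known not to replace it in maintenance. It had 10.60, 10.65 and 10.72 in siLuc cells, 10.70, 10.71 and 10.77 with IFN-γ, 10.59, 10.60 and 10.51 in siPRMT7 cells, and 10.76, 10.70 and 10.62 in siPRMT7 cells with IFN-γ. All 4 group means lay within 0.16 of each other. Its transcript (ENSMUST00000025739.13, of gene ENSMUSG00000024817.13) spans chr19:30030513-30093722 of mm10, on the plus strand. The knockdown differences were -0.09 without IFN-γ (SE 0.04, adjusted p = 0.069) and -0.03 with it (SE 0.04, adjusted p = 0.543), and neither was called. The first was called without siLuc replicate 1 (-0.12, adjusted p = 0.0295), and the second turned to 0.05 under median centring. IFN-γ raised Uhrf2 by 0.13 in siPRMT7 cells (adjusted p = 0.0159), but this was not called under quantile normalization (0.07, adjusted p = 0.165) or without siPRMT7 replicate 3 or the siPRMT7 replicate 1 given IFN-γ (adjusted p up to 0.0988).

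Of the de novo enzymes, Dnmt3a had the higher level per length, as given below. Its transcript (ENSMUST00000020991.14, of gene ENSMUSG00000020661.15) spans chr12:3807030-3914443 of mm10, on the plus strand. The values were 11.21, 11.38 and 11.33 in siLuc cells, 10.62, 10.66 and 10.60 with IFN-γ, 10.50, 10.45 and 10.41 in siPRMT7 cells, and 9.98, 9.99 and 9.93 in siPRMT7 cells with IFN-γ. Each group lay below the one before, and neighbouring groups did not overlap. Dnmt3a fell by 0.85 on knockdown (SE 0.04, adjusted p = 2.84e-13) and by 0.66 on knockdown in the presence of IFN-γ (adjusted p = 1.86e-11). IFN-γ lowered it by 0.68 in siLuc and by 0.49 in siPRMT7 cells. The antisense gene Dnmt3aos shares 0.815% of the exon bases of Dnmt3a and had a mean of -1.49 against 10.59, and no other gene overlapped exons of the 9.

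Dnmt3b had 7.66, 7.73 and 7.61 in siLuc cells, 7.09, 7.12 and 7.14 with IFN-γ, 7.24, 7.08 and 7.11 in siPRMT7 cells, and 6.73, 6.94 and 6.70 in siPRMT7 cells with IFN-γ. The 2 middle groups overlapped, and the authors' deposited table gives a log2 fold change of 0.04 between them (adjusted p = 0.866). Dnmt3b fell by 0.53 on knockdown without IFN-γ (SE 0.08, adjusted p = 9.23e-06) and by 0.32 with it (SE 0.08, adjusted p = 0.00166). The latter was not called in the authors' deposited table (-0.39, adjusted p = 0.0641). IFN-γ lowered it by 0.55 in siLuc and by 0.35 in siPRMT7 cells. Its transcript (ENSMUST00000109774.8, of gene ENSMUSG00000027478.15) spans chr2:153649453-153687730 of mm10, on the plus strand. Dnmt3l, the cofactor of these enzymes that lacks catalytic activity, stayed under the filter with values from 1.10 to 1.34.

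Among the dioxygenase genes, Tet2 moved opposite to the methyltransferase genes. It had 9.41, 9.30 and 9.51 in siLuc cells, 10.15, 9.95 and 10.19 with IFN-γ, 10.62, 10.55 and 10.52 in siPRMT7 cells, and 10.89, 10.99 and 10.89 in siPRMT7 cells with IFN-γ. No groups overlapped, and the order was the reverse of that of Dnmt1. Tet2 rose by 1.16 on knockdown without IFN-γ (SE 0.06, adjusted p = 2.14e-13), to 223% of the control level, and by 0.82 with it (adjusted p = 5.9e-11). IFN-γ raised it by 0.69 in siLuc cells (adjusted p = 2.03e-09) and by 0.36 in siPRMT7 cells (adjusted p = 2.72e-05). Its transcript (ENSMUST00000098603.7, of gene ENSMUSG00000040943.12) spans chr3:133463679-133544390 of mm10, on the minus strand.

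Tet1 had 8.53, 8.56 and 8.74 in siLuc cells, 8.92, 8.77 and 8.81 with IFN-γ, 8.41, 8.56 and 8.15 in siPRMT7 cells, and 8.12, 8.06 and 7.88 in siPRMT7 cells with IFN-γ. It was the only gene of the set that IFN-γ moved in opposite directions, by 0.22 in siLuc cells (adjusted p = 0.0397) and by -0.35 in siPRMT7 cells (SE 0.09, adjusted p = 0.00222). The call in siLuc cells was lost under 8 of 13 alternatives, among them quantile normalization (0.13, adjusted p = 0.221) and leaving out siLuc replicate 1 or 2 or siLuc with IFN-γ replicate 1 or 3. With IFN-γ in both groups Tet1 was lower in siPRMT7 cells by 0.81 (SE 0.09, adjusted p = 6.02e-08), and those libraries did not overlap. Without IFN-γ the siLuc and siPRMT7 libraries overlapped and the difference was -0.24 (adjusted p = 0.0227). That call was lost under median centring (-0.20, adjusted p = 0.0544), with no filter on the mean (adjusted p = 0.0659), without siLuc replicate 3 and without siPRMT7 replicate 3 (-0.13, adjusted p = 0.199). The authors' deposited table did not call it either (-0.26, adjusted p = 0.0627). Its transcript (ENSMUST00000174189.1, of gene ENSMUSG00000047146.17) spans chr10:62804577-62899118 of mm10, on the minus strand.

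Tet3 had 11.51, 11.63 and 11.54 in siLuc cells, 11.21, 11.10 and 11.18 with IFN-γ, 11.35, 11.35 and 11.24 in siPRMT7 cells, and 11.14, 11.22 and 11.10 in siPRMT7 cells with IFN-γ. It was highest in the control and did not separate the knockdown from siLuc once IFN-γ was present (-0.01, SE 0.04, adjusted p = 0.871, and 0.08 under median centring). Without IFN-γ it fell by 0.25 on knockdown (adjusted p = 4.2e-05). IFN-γ lowered it by 0.40 in siLuc cells (adjusted p = 1.3e-07) and by 0.16 in siPRMT7 cells (adjusted p = 0.00493). Its transcript (ENSMUST00000089622.10, of gene ENSMUSG00000034832.15) spans chr6:83362373-83441675 of mm10, on the minus strand.

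**Figure D2:**
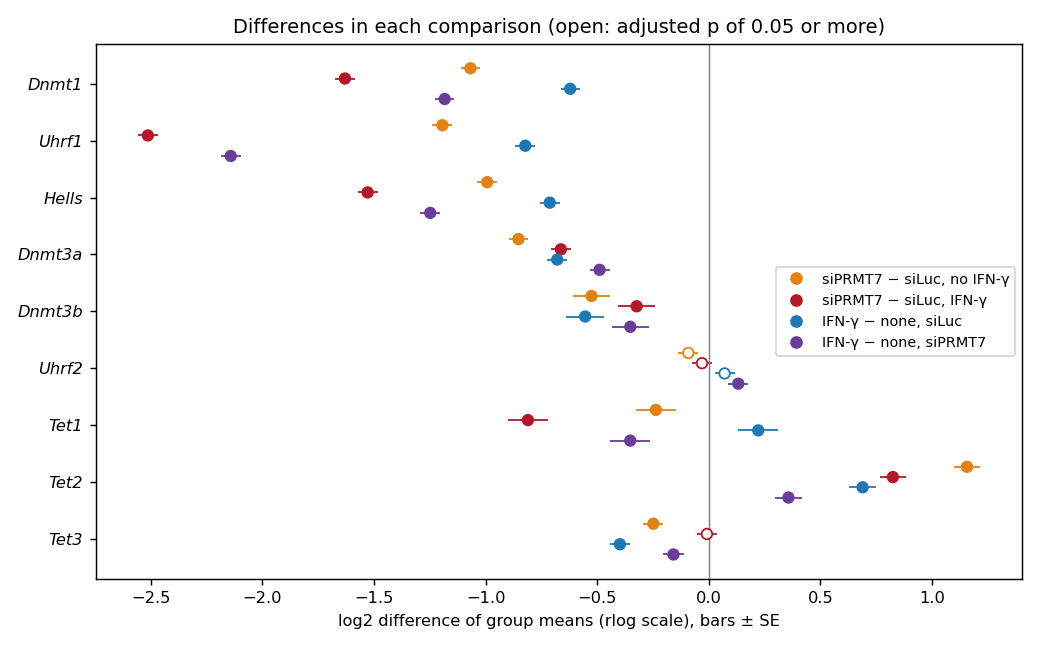
Log2 differences of group means for each gene in the 4 comparisons of a pair of groups, with SE bars; filled points had an adjusted p under 0.05. Dnmt1, Uhrf1, Hells, Dnmt3a and Dnmt3b lie left of 0 in all 4 comparisons and Tet2 right of it, while Tet1 crosses it.

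Without IFN-γ, 8 of the 9 genes were called between siPRMT7 and siLuc cells, 7 lower and 1 higher. Calls were common in this comparison: 75.2% of all genes tested passed, 38.9% lower and 36.3% higher, so that being called set no gene apart. The libraries did not overlap for 8 of the 9 genes, against 76.3% of all genes. The median difference was -0.53 over the 9 genes and -0.01 over all genes tested. With IFN-γ 6 were lower, 1 was higher and 2 were not called, where 74.7% of all genes were called, 38.7% lower and 35.9% higher (median -0.66 against -0.01). The libraries did not overlap for 7 of the 9, against 77.2% of all genes. IFN-γ in siLuc cells lowered 6, raised 2 and left 1 uncalled, where 60.6% of all genes were called, 32.7% lower and 28.0% higher (median -0.55 against -0.02). There 8 of the 9 did not overlap, against 62.1%. In siPRMT7 cells it lowered 7 and raised 2, where 56.6% of all genes were called, 28.6% lower and 28.0% higher (median -0.35 against -0.00), and 9 of 9 did not overlap, against 65.3%. The comparisons share groups, so their values are given side by side and were not tested against each other except through the interaction. The authors' deposited table holds the same 36 values with the same signs and calls 30 of the 32 called here, and the calls not made there are those of Dnmt3b and Tet1 on knockdown given above.

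The response to IFN-γ differed between siPRMT7 and siLuc cells for 7 of the 9 genes by the interaction term, 5 negative and 2 positive, beside 30.6% of all genes tested, 16.5% negative and 14.1% positive. The interaction was negative for Uhrf1 (-1.32, SE 0.06, adjusted p = 7.18e-13), for Tet1 (-0.57, SE 0.13, adjusted p = 0.00161), for Dnmt1 (-0.56, SE 0.06, adjusted p = 3.12e-07), for Hells (-0.54, SE 0.06, adjusted p = 8.82e-07) and for Tet2 (-0.33, SE 0.08, adjusted p = 0.00453). The interaction and the sums given below are on the log2 scale, and linear levels were not compared in this way. For the 3 maintenance genes a negative value means that the log2 fall with both treatments exceeded the sum of the separate log2 falls. In cells given both, Uhrf1 was 3.34 below siLuc cells without IFN-γ, and the separate differences sum to -2.02. It stood at 9.91% of the control level. Dnmt1 was at -2.25 against a sum of -1.69 (21.0% of control) and Hells at -2.24 against -1.71 (21.2%). For Tet2 the combined rise of 1.51 was smaller than the sum of 1.85 and reached 286% of control. Tet1 had a sum of -0.02 and a combined difference of -0.59.

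The interaction was positive for Tet3 (0.24, SE 0.06, adjusted p = 0.00648) and Dnmt3a (0.19, SE 0.06, adjusted p = 0.0263), whose combined differences of -0.41 and -1.34 were smaller than the sums of -0.65 and -1.53. The Dnmt3a call was lost under 9 of 18 alternatives (adjusted p from 0.00302 to 0.0812), including no filter on the mean and leaving out any of 7 libraries. These were siLuc replicate 2, replicates 1 and 3 of siLuc with IFN-γ, siPRMT7 replicates 2 and 3, and replicates 1 and 2 of siPRMT7 with IFN-γ. Dnmt3b (0.20, adjusted p = 0.215) and Uhrf2 (0.06, adjusted p = 0.505) had no interaction past the threshold.

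**Figure D3:**
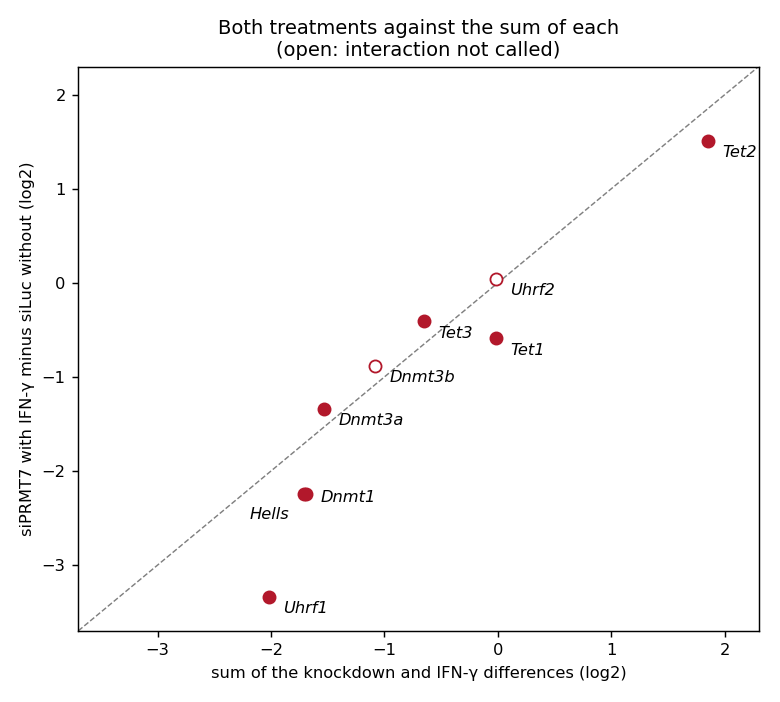
Log2 difference of siPRMT7 cells with IFN-γ from siLuc cells without it (vertical) against the sum of the separate knockdown and IFN-γ differences (horizontal), 1 point per gene; the dashed line marks equality and filled points had a called interaction. Uhrf1, Dnmt1, Hells, Tet1 and Tet2 lie below the line, and Dnmt3a and Tet3 above it.

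The order of the genes themselves changed with treatment when levels were set per length (rlog value minus log2 of the listed transcript's length in kb). In siLuc cells Uhrf1 (10.70) and Dnmt1 (10.37) were highest, followed by Hells (9.29), Uhrf2 (8.85), Tet3 (8.12), Dnmt3a (8.04), Tet2 (6.21), Dnmt3b (5.58) and Tet1 (4.77). Tet3 and Dnmt3a differed there by less than the SD of Dnmt3a (0.09), and the other neighbours by more than their SDs. In siPRMT7 cells with IFN-γ the highest was Uhrf2 (8.89), then Dnmt1 (8.12), Tet2 (7.73), Tet3 (7.71), Uhrf1 (7.37), Hells (7.05), Dnmt3a (6.70), Dnmt3b (4.70) and Tet1 (4.18). Tet2 and Tet3 differed by less than their SD (0.06 each) in that group. The length is that of 1 transcript per gene, and other isoforms would move these levels.

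Genes of DNA replication moved beside the maintenance genes. The list held 25 genes of S phase, all measured, such as Mcm2 to Mcm7, Rrm1, Rrm2 and Tyms. On knockdown without IFN-γ 24 were lower and 1 was higher (median -1.07), and with IFN-γ 23 were lower and 1 higher (median -1.99). IFN-γ lowered 23 and raised 0 in siLuc cells (median -0.70) and lowered 24 and raised 1 in siPRMT7 cells (median -1.54). The interaction was negative for 22 and positive for 2 (median -0.76). Of all genes tested 38.9%, 38.7%, 32.7% and 28.6% were lower in these comparisons, in the same order, and 16.5% had a negative interaction. Without IFN-γ the knockdown differences of Dnmt1, Uhrf1 and Hells lay inside the range of these genes, with 13, 9 and 16 of the 25 lower than each. With IFN-γ 16, 3 and 17 were lower. Summed on a linear scale, the 25 genes ran from 89630 to 95490 in siLuc libraries, 56580 to 58660 in siLuc with IFN-γ, 44290 to 45130 in siPRMT7 and 18770 to 19700 in siPRMT7 with IFN-γ. Their part in the fall of the maintenance genes was not tested, and in bulk RNA fewer cells in S phase and less RNA per cell cannot be told apart. In the interaction Dnmt3a and Dnmt3b were at 0.19 and 0.20 beside the list's median of -0.76, with 23 of the 25 genes lower than each and 2 higher. The difference from the list was not tested.

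**Figure D4:**
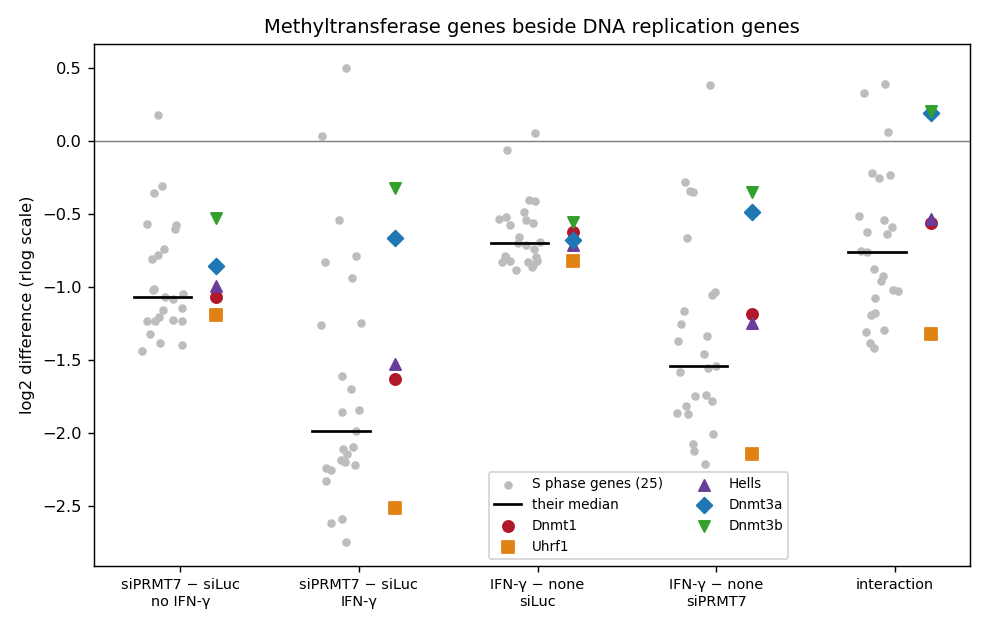
Log2 differences of 25 DNA replication genes (grey points, median as a bar) and of Dnmt1, Uhrf1, Hells, Dnmt3a and Dnmt3b (coloured symbols) in the 4 comparisons and the interaction. Dnmt1 and Hells lie near or above the median of the grey points and Uhrf1 below it, while Dnmt3a and Dnmt3b lie above 0 in the interaction.

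Likeness of pattern was described with Pearson's r over the 12 libraries, which fall into 4 groups, so r is a description with no test. The genes most like Uhrf1 were Rrm2 (0.9995), Mcm4 (0.9992) and Kif15 (0.9988), 2 genes of DNA synthesis and a mitotic kinesin gene. Those most like Dnmt1 were Ncapd2 (0.9989), a condensin subunit gene, Atad2 (0.9989) and Lmnb1 (0.9982), the lamin B gene, and those most like Hells were Rrm1 (0.9983), Mcm2 (0.9977) and Iqgap2 (0.9976). Dnmt3a was most like Hvcn1 (0.9971), Tmem56 (0.9969) and Ctnnb1 (0.9960). Dnmt3b was most like St6galnac6 (0.9829), Spef1 (0.9809) and Cerk (0.9808). Tet2 was most like Rgp1 (0.9928), Rab36 (0.9928) and Vamp1 (0.9926). Tet1 was most like Sema3f (0.9612), Tet3 most like Etl4 (0.9577), and Uhrf2, whose groups hardly differ, most like P4ha1 (0.8640).

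The other genes of the pathway did not move as a block. Counts in the lists from here on stand beside these shares of all genes tested. On knockdown 75.2% were called without IFN-γ (38.9% lower, 36.3% higher) and 74.7% with it (38.7% and 35.9%). On IFN-γ 60.6% were called in siLuc cells (32.7% and 28.0%) and 56.6% in siPRMT7 cells (28.6% and 28.0%). Counts near these shares set no list apart. Of 10 genes listed for a part in maintenance methylation, for or against it, 7 fell and 2 rose on knockdown without IFN-γ (median -0.67). With IFN-γ 7 fell and 1 rose (median -0.88). Pclaf, the PCNA-associated factor that takes part in Dnmt1 recruitment, had differences of -1.39 and -2.85 in these comparisons, and Lig1, the replicative DNA ligase that binds Uhrf1, of -1.15 and -1.94. Dcaf5, a substrate receptor of a ubiquitin ligase and listed on the side against maintenance, rose by 0.93 without IFN-γ and by 0.99 with it. L3mbtl3, listed beside Dcaf5, was not called in these comparisons (-0.08 in both). Cdca7l, a relative of the Hells partner Cdca7, fell by 1.75 with IFN-γ, and 21.7% of its exon bases are shared with Dnah11 on the opposite strand. IFN-γ lowered 5 and raised 3 of the list both in siLuc cells (median -0.17) and in siPRMT7 cells (median -0.55). Pclaf and Lig1 are themselves genes of replicating cells.

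Genes listed as readers of methylated DNA were mostly higher. The list was not limited to genes known to bind methylated CpG, as it also holds Mbd3, Mbd5 and Mbd6, relatives by family. These were at -0.84, 0.59 and 1.03 on knockdown without IFN-γ. Of 9 genes 7 rose and 2 fell on knockdown, both without IFN-γ (median 0.59) and with it (median 0.45). Zbtb4, a zinc finger repressor that binds methylated CpG, rose by 1.53 without IFN-γ, and its relative Zbtb38 rose by 1.12. Mbd3, a subunit of the NuRD complex, fell by 0.96 with IFN-γ. The other gene of the list that fell on knockdown was Mbd2, at -0.42 without IFN-γ and -0.58 with it. IFN-γ raised 5 and lowered 2 of the list in siLuc cells (median 0.20) and raised 6 and lowered 1 in siPRMT7 cells (median 0.13). Zbtb4 rose by 1.03 and Mbd2 by 0.49 with the cytokine in siLuc cells.

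The genes that supply the methyl donor and alpha-ketoglutarate, or remove competing metabolites, were mostly lower. Of 17 genes 11 fell and 5 rose on knockdown without IFN-γ (median -0.46), and 11 fell and 4 rose with it (median -0.50). Idh2, the mitochondrial isocitrate dehydrogenase gene, had differences of -1.69 and -1.62. Fh1, encoding fumarate hydratase, had differences of -1.58 and -1.69, and Sdha, a subunit of succinate dehydrogenase, of -1.12 and -1.16. IFN-γ lowered 10 and raised 4 of them in siLuc cells, with Ahcy, whose product removes the inhibitor S-adenosylhomocysteine, at -0.69. In siPRMT7 cells IFN-γ lowered 9 and raised 2, with Mat2a, encoding the synthase of S-adenosylmethionine, at -0.73 and Mtr, methionine synthase, at -0.54. Mat2a went against the list on knockdown, where it rose by 0.68 without IFN-γ and by 0.38 with it. Its mean was 13.34 in the siLuc control and 13.29 after both treatments. It shares 11.3% of its exon bases with an opposite-strand gene.

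Base excision genes, which complete demethylation after oxidation, split into 5 higher and 4 lower of 10 on knockdown without IFN-γ (median 0.06) and 6 higher and 2 lower with it (median 0.22). Gadd45a, a stress gene linked to DNA demethylation, rose by 0.85 with IFN-γ, and Parp1 was at -0.71 without it and -0.77 with it. Apex1, the abasic site endonuclease gene, was at -1.09 without IFN-γ, but 61.7% of its exon bases are shared with Pip4p1 on the opposite strand, which leaves its value uncertain. Gadd45a shares 19.1% with a weaker opposite-strand gene. IFN-γ raised 3 and lowered 4 of the list in siLuc cells, with Gadd45b at 1.31 and Tdg, the glycosylase that removes oxidised bases, at -0.78, and it raised 3 and lowered 3 in siPRMT7 cells. Cofactors of de novo methylation had 2 higher and 4 lower of 7 measured on knockdown without IFN-γ, with Trim28 at -0.77, and 3 higher and 4 lower with it, with Nsd2 at -0.70. IFN-γ lowered 3 of them and raised 0 in siLuc cells, and lowered 1 and raised 0 in siPRMT7 cells. Of 6 measured Tet partners and CXXC proteins, 3 were higher and 2 lower without IFN-γ, and 3 higher and 1 lower with it. Ogt, the O-GlcNAc transferase gene whose product binds Tet proteins, was at 0.33 without IFN-γ. Cxxc5, a relative of the Tet regulator Cxxc4, was at 0.60 with IFN-γ and at -0.76 in the response of siLuc cells to it, in which 4 of the 6 fell and 0 rose. In siPRMT7 cells 2 fell and 1 rose.

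**Figure D5:**
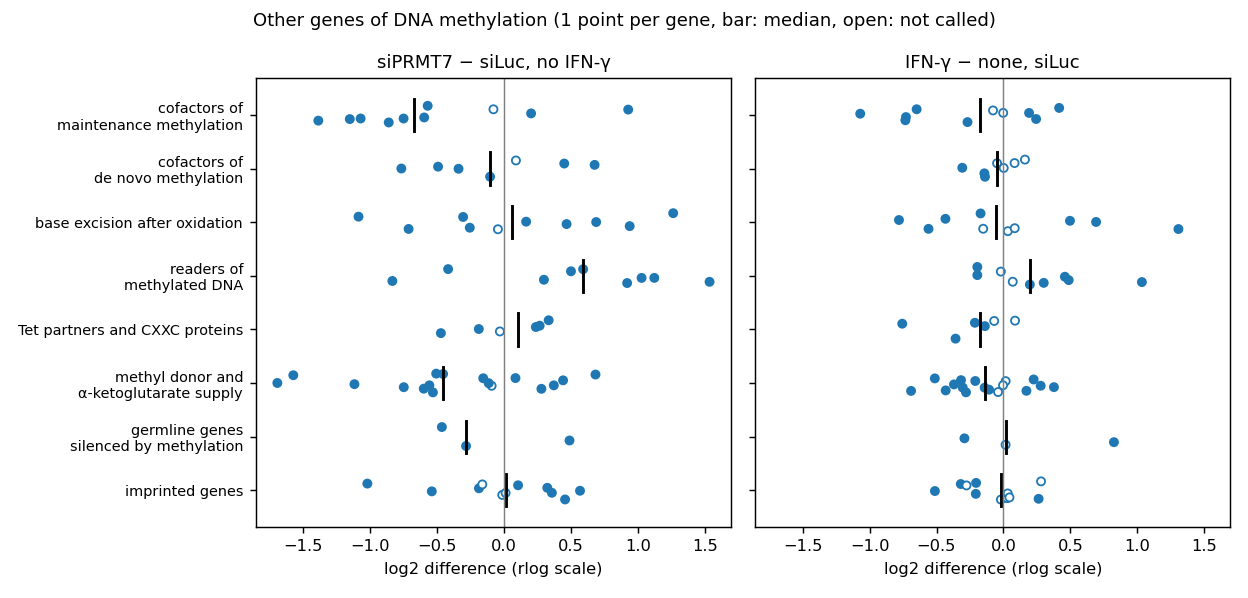
Log2 differences of the other genes of DNA methylation on knockdown without IFN-γ (left) and on IFN-γ in siLuc cells (right), 1 point per measured gene, grouped by list, with the median as a bar and open points for genes not called. The list of readers of methylated DNA lies mostly right of 0 on the left panel, and the lists of maintenance and donor supply mostly left of it.

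Genes whose silence depends on DNA methylation were read as an outcome. Of 20 germline genes known to be silenced by promoter methylation, 17 stayed under the filter and only Fkbp6, Sycp3 and Brdt passed it. Fkbp6 had values from 11.30 to 11.85, so it was not silent in any group, and its changes are no reading of silencing. The highest value among the 17 was 3.86, for Tex14, and Dazl and Mael did not exceed -2.21 in any library. Sycp1, Stk31 and Rhox13 were at 0 in all 12. Brdt, a testis bromodomain gene, had means of 5.83 in siLuc, 6.66 in siLuc with IFN-γ, 6.32 in siPRMT7 and 6.79 in siPRMT7 cells with IFN-γ. It rose by 0.49 on knockdown without IFN-γ (SE 0.10, adjusted p = 0.000159) and by 0.83 on IFN-γ in siLuc cells (adjusted p = 3.33e-07). With IFN-γ in both groups its knockdown difference was 0.13 and was not called (adjusted p = 0.233), and of the 3 genes 0 were higher, 1 was lower and 2 were not called. IFN-γ raised 1 and lowered 1 of the 3 in siLuc cells, and raised 2 and lowered 0 in siPRMT7 cells. Fkbp6 fell by 0.47 and Sycp3 by 0.28 on knockdown without IFN-γ, and 52.2% of the exon bases of Sycp3 are shared with the stronger Chpt1 on the opposite strand. The samples were collected 72 h after transfection, and DNA methylation itself was not measured.

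Of 25 imprinted genes, expressed from 1 parental allele under the control of DNA methylation, 11 passed the filter. On knockdown 5 were higher and 3 lower without IFN-γ (median 0.01), and 3 higher and 2 lower with it (median 0.06). Mest was at -1.02 and -1.77, and 28.0% of its exon bases are shared with the stronger Copg2 on the opposite strand. Gnas was at 0.36 and 0.40 and shares 28.4% with an opposite-strand gene, and Peg13 was at 0.57 without IFN-γ. IFN-γ lowered 4 and raised 1 in siLuc cells and lowered 5 and raised 1 in siPRMT7 cells, with Igf2r at -0.51 and -0.43 and Peg10 at -0.32 and -0.51. The sources used here do not say whether reads were counted by strand, which leaves the values of genes that share exon bases uncertain.

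Among these other genes the interaction term was negative for 5 and positive for 1 of the 10 genes listed for maintenance (median -0.31). Pclaf was at -1.46 and Lig1 at -0.79, beside Uhrf1 at -1.32. For the list of readers of methylated DNA it was negative for 3 and positive for 0 of 9, with Zbtb4 at -0.53. Donor supply had 3 negative and 1 positive of 17, with Mtr at -0.40. All list counts of the interaction stand beside 30.6% of all genes tested, 16.5% negative and 14.1% positive. Counts near those shares set no list apart. Tet partners had 4 positive and 0 negative of 6, with Cxxc5 at 0.36. Base excision had 3 positive and 2 negative of 10, de novo cofactors had 1 each of 7, with Trim28 at 0.27 and Nsd2 at -0.21, germline genes had 1 positive of 3 (Fkbp6 at 0.26), and imprinted genes 3 negative of 11, with Peg13 at -0.47.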

How the data were processed

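The deposited table holds 55536 rows, 1 per gene, each with 1 regularized log (rlog) value per library, on the log2 scale; the authors derived these from read counts, not used here. The authors' deposited log2 fold changes and adjusted p-values stand in the same table, with no method of adjustment given in the sources used here. The build was mm10 (GRCm38) and the tools named were DESeq2 1.26.0, HOMER 4.11.1, STAR 2.7.1a and Trimmomatic 0.39, all per the submitters' processing notes. Where a symbol stood on more than 1 row (115 symbols), the row with the highest mean was kept. The 14407 genes whose rlog values averaged 4 or more entered limma 3.58.1 (R 4.3.3): means of 4 groups, all 12 libraries, a mean-variance trend, 2-sided tests, and Benjamini-Hochberg adjustment over all genes tested. Calls are at an adjusted p under 0.05. The fit was tested on simulated data. The rlog scale narrows the spread of genes with few reads, so their p-values may be too small. The members and lists were chosen with earlier results of these data known. Named were all 9 members and up to 3 called genes of each list with the smallest p per comparison. Also named were the 3 genes with the highest r to each member (group means spanning at least 0.5, predicted genes left out). Dnmt3l, other silent germline genes and genes sharing exon bases were named after their values were seen. Not every gene this rule selects is reported here. Exon overlaps come from GENCODE M21, and promoters from RefSeq on GRCm38.p6. Alternatives were median centring, quantile normalization, no filter, a filter of 6, no trend, a replicate block, only the groups compared, and leaving out each library.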

Additional observations from a re-analysis of the deposited data

Results flagged for a closer look

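For 7 of the 9 genes the response to IFN-γ differed between siPRMT7 and siLuc cells by the interaction term of the limma fit, beside 30.6% of all genes tested. The value was -1.32 for Uhrf1, -0.57 for Tet1, -0.56 for Dnmt1, -0.54 for Hells, -0.33 for Tet2, 0.24 for Tet3 and 0.19 for Dnmt3a, whose call was lost under 9 of 18 alternatives. IFN-γ lowered Uhrf1 by 0.82 in siLuc and by 2.14 in siPRMT7 cells. Tet1 alone moved in opposite directions, by 0.22 and by -0.35, and the first of these calls was lost under 8 of 13 alternatives. Groups of 3 libraries were too small to be screened for single outlying libraries.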

How the results depend on the processing

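Of 45 differences of single genes, 38 kept their direction and their side of the threshold under all alternatives run, among them each value of Dnmt1, Uhrf1, Hells, Dnmt3b and Tet2. The sign turned for 2 values that were near 0 and not called, both on knockdown with IFN-γ. Uhrf2 (-0.03) was at 0.0537 under median centring and 0.0150 under quantile normalization, and at -0.0641 to 0.00750 with a library left out, positive without siPRMT7 with IFN-γ replicate 3. Tet3 (-0.01) was at 0.0759 under median centring, 0.0428 under quantile normalization and -0.0423 to 0.0172 with a library left out, positive without siLuc with IFN-γ replicate 1 or siPRMT7 with IFN-γ replicate 3. The other 5 were calls of Tet1 (on knockdown without IFN-γ and on IFN-γ in siLuc cells), Uhrf2 (on IFN-γ in siPRMT7 cells and on knockdown without IFN-γ) and Dnmt3a (the interaction), given above with the libraries they rest on. The cause was not tested. Counts of called genes stayed within 1.5 times under every alternative, for example 9479 to 12205 on knockdown without IFN-γ and 3812 to 4845 for the interaction. The labels do not say what a shared replicate number stands for, and the deviations did not meet the criterion for pairing, a correlation over 0.1 in every pair. Same-numbered libraries had deviations whose correlations ran from -0.124 to 0.224, 4 of 12 over 0.1, and different-numbered libraries from -0.153 to 0.106, 1 of 24 over 0.1. By this measure 7 of 12 cases, each a library set against those of another group, correlated best with their own number. In these cases siLuc libraries entered more than once, and siPRMT7 libraries with IFN-γ entered only as the partners. With the replicate block 10896, 10837, 8855 and 8273 genes were called in the 4 comparisons and 4573 for the interaction, and no call of the 9 genes changed. The limit set by depth was not tested, since the read counts were not used here.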
